A study of Homo sapiens with 6 samples.

Results

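The PAQR family (progestin and adipoQ receptors) was followed in a HEK293 line made to express BAHD1 and in its control line, through the probe sets of 9 genes: PAQR5, PAQR6, PAQR7, PAQR8, PAQR9, ADIPOR1, ADIPOR2, PAQR3 and PAQR4. A probe set was taken when its annotation named 1 of these genes and no other, which gave 1 probe set per gene, 9 of the 28869 on the array. No probe set named a member together with other genes, and 18377 genes in all were named alone by a probe set. The 9 genes were chosen from results of this same contrast, in which PAQR5 had one of the larger differences, so their values are a description and carry no test.

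HEK293 cells are a long-used human line that was derived from embryonic kidney. The labels describe HEK-BAHD1 as HEK293 with a single integrated BAHD1 cDNA driven by the CMV immediate-early promoter, and the isogenic control (HEK293-CT, here HEK-CT) as carrying an out-of-frame β-galactosidase sequence instead. The paper describes an empty vector for the control. Both lines grew in hygromycin B, and total RNA was hybridised to Affymetrix HuGene 1.0 ST arrays, 3 per line. According to the supplement, each line was 1 stable pool of transfectants kept in separate flasks. The spread between arrays is thus that of cultures of 1 pool per line. The supplement also states that HEK-BAHD1 replicate 2 was taken at a later passage than HEK-BAHD1 replicate 1 and the control. It gives no passage for a replicate 3. In bulk RNA, a change in the number of cells of a kind and a change in the RNA per cell cannot be told apart.

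BAHD1 itself checks the labels and ran against them. Its log2 signal was 10.06, 9.81 and 9.93 on the arrays labelled HEK-CT and 6.75, 7.0 and 6.76 on those labelled HEK-BAHD1. The difference was -3.10 (standard error 0.093, limma adjusted p = 3.12e-05). The study describes the opposite for BAHD1, which by its RT-QPCR was raised in the HEK-BAHD1 line. By the same method IGF2 was lowered there, which was not compared with the arrays here. The supplement lists the X-linked IRS4 and LDOC1 as lower in that line, whereas both were higher under that label here. The other genes of that listing were not compared. Which label is right was not settled from these sources. Every direction given here is therefore that of the labels, written as label HEK-BAHD1 minus label HEK-CT, and would turn if the labels were exchanged. Of 9 markers of the HEK293 line, 8 lay above the dim threshold, a log2 signal of 4.93 under which the lowest 30% of named probe sets fell. Of the markers of other cell types (fibroblast, endothelium, blood, hepatocyte, proximal tubule, adipocyte), 20 of 21 were measured, 13 lay below that threshold, and the 1 called gene was COL3A1, a fibroblast collagen, at -0.31. The 4 called HEK293 markers were NEFL, NEFM and IRS4 (higher by 0.40, 0.77 and 0.71) and VIM (-0.28), and their part in the results below was not tested.

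PAQR proteins span the membrane several times with a topology opposite to that of G protein-coupled receptors. The membrane progestin receptors (PAQR5 to PAQR9) bind progesterone and related steroids at the cell surface and are best known for rapid effects in oocytes, sperm and reproductive tissue, in part through inhibitory G proteins that lower cyclic AMP. ADIPOR1 and ADIPOR2 bind the fat-cell hormone adiponectin, act through AMPK and PPARA, and have ceramidase activity. PAQR3 sits in the Golgi, where it holds RAF kinase and anchors the SCAP and SREBP complex, and PAQR4 has been linked to the stability of CDK4.

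Among the members, 7 of 9 had the higher mean under the HEK-BAHD1 label, and PAQR5 stood far from the rest at a log2 difference of 1.37, followed by PAQR8 at 0.45 and PAQR4 at 0.24. A gene was called at a limma adjusted p under 0.05 together with a difference of group medians above 0.2. By this rule 3 members lay past the threshold on the higher side and 0 on the lower side, where 0 also reached an unadjusted p under 0.05 in limma and 0 passed with the LPE test (local pooled error, the study's own test). Over the 21062 probe sets naming a gene, 13.2% were called, 6.79% higher and 6.39% lower. The arrays of the 2 labels did not overlap for 6 of the 9 members, beside 33.6% of all named probe sets. Since the choice of members used this contrast, nothing is read from these counts. The median difference of the members was 0.21, or 0.19 without PAQR5, beside 0.0033 over all named probe sets.

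**Figure D1:**
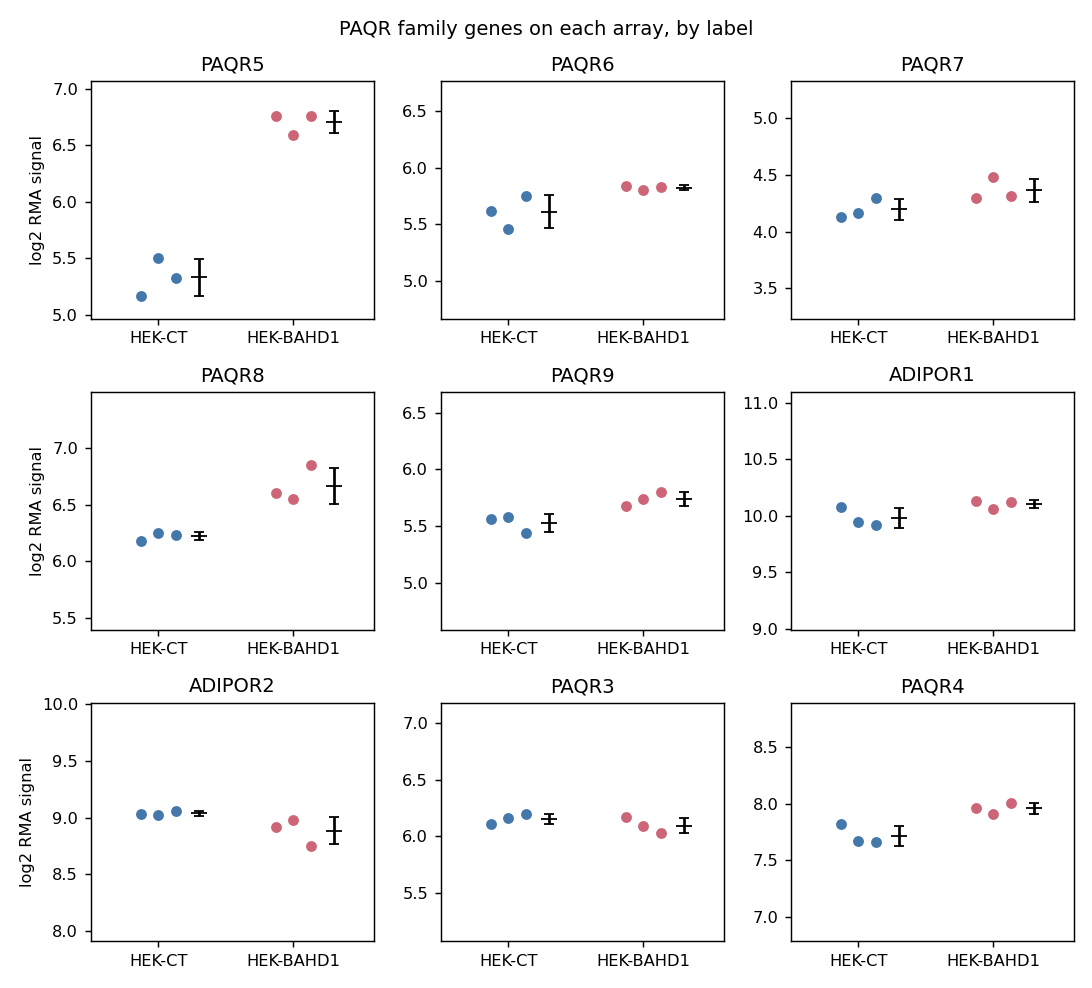
Log2 RMA signal (vertical axis) of the 9 PAQR family genes on the 6 arrays, split by label. Points are single arrays, the cross line and bar give mean and SD of 3 arrays, and each panel has its own range. The arrays labelled HEK-BAHD1 lie between 6.59 and 6.76 for PAQR5, above all those labelled HEK-CT.

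PAQR5 encodes the membrane progestin receptor gamma and lies on chromosome 15. Its log2 signal was 5.17, 5.50 and 5.33 on HEK-CT replicates 1, 2 and 3, and 6.76, 6.59 and 6.76 on HEK-BAHD1 replicates 1, 2 and 3. The groups were far apart: the lowest array labelled HEK-BAHD1 lay 1.09 above the highest labelled HEK-CT. The means were 5.33 ± 0.17 and 6.70 ± 0.098 (SD, n = 3 each), a difference of 1.37 with a standard error of 0.094, or 2.58-fold. With each array left out in turn it ranged from 1.29 to 1.45.

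PAQR8, on chromosome 6, encodes the receptor beta. It read 6.18, 6.25 and 6.23 on the arrays labelled HEK-CT and 6.60, 6.55 and 6.85 on those labelled HEK-BAHD1. The groups did not overlap, and HEK-BAHD1 replicate 3 was the highest array. The difference was 0.45 (standard error 0.084), or 1.36-fold, and 0.36 without that array.

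PAQR6 and PAQR9 encode the receptors delta and epsilon, on chromosomes 1 and 3. PAQR6 read 5.62, 5.46 and 5.75 on the arrays labelled HEK-CT, and 5.84, 5.80 and 5.83 on those labelled HEK-BAHD1. Its HEK-CT arrays were the more scattered, and the gap between the nearest arrays was only 0.05. The difference of 0.21 (standard error 0.078) was 0.14 without HEK-CT replicate 2 and 0.28 without HEK-CT replicate 3. PAQR9 read 5.56, 5.58 and 5.44, then 5.68, 5.74 and 5.80, so its groups did not overlap either. Its difference of means was 0.21 (standard error 0.063), with a difference of medians of 0.18, and it lay short of both conditions of the call rule.

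PAQR7, on chromosome 1, encodes the receptor alpha, the first described of these. It was dim, at 4.13, 4.16 and 4.30 on the arrays labelled HEK-CT and 4.30, 4.48 and 4.31 on those labelled HEK-BAHD1. All 6 values lay under the dim threshold and the groups touched at 4.30. The difference was 0.17 with a standard error of 0.075. Over the membrane progestin receptors, 5 of 5 means were higher on the arrays labelled HEK-BAHD1, by 0.17 to 1.37, and 2 of the 5 lay past the call rule on that side, beside 6.79% of all named probe sets. As the members were chosen from this contrast, nothing is read from that count.

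The means of the adiponectin receptors differed little between labels, with opposite signs. ADIPOR1, on chromosome 1, read 10.08, 9.94 and 9.92 on the arrays labelled HEK-CT and 10.13, 10.06 and 10.12 on those labelled HEK-BAHD1. HEK-CT replicate 1 lay inside the range of the other group. The difference was 0.12 (standard error 0.062). ADIPOR2, on chromosome 12, read 9.03, 9.02 and 9.06 on the arrays labelled HEK-CT and 8.92, 8.98 and 8.75 on those labelled HEK-BAHD1. It was the only member whose arrays labelled HEK-BAHD1 all lay below the others. HEK-BAHD1 replicate 3 was the lowest, and the difference of -0.15 (standard error 0.070) was -0.087 without it.

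Of the Golgi members, PAQR3 on chromosome 4 read 6.11, 6.16 and 6.20, then 6.17, 6.09 and 6.03. The groups overlapped and the difference was -0.06 (standard error 0.060). PAQR4, on chromosome 16, read 7.82, 7.67 and 7.66 on the arrays labelled HEK-CT, and 7.96, 7.91 and 8.01 on those labelled HEK-BAHD1. These did not overlap, and HEK-CT replicate 1 was nearest to the other group. The difference was 0.24 (standard error 0.065), or 1.18-fold. PAQR4 lay at the edge of the call rule: it stayed past it under 6 of 14 alternatives, and among the leave-outs only without HEK-CT replicate 1. Its difference stayed between 0.20 and 0.30 throughout.

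**Figure D2:**
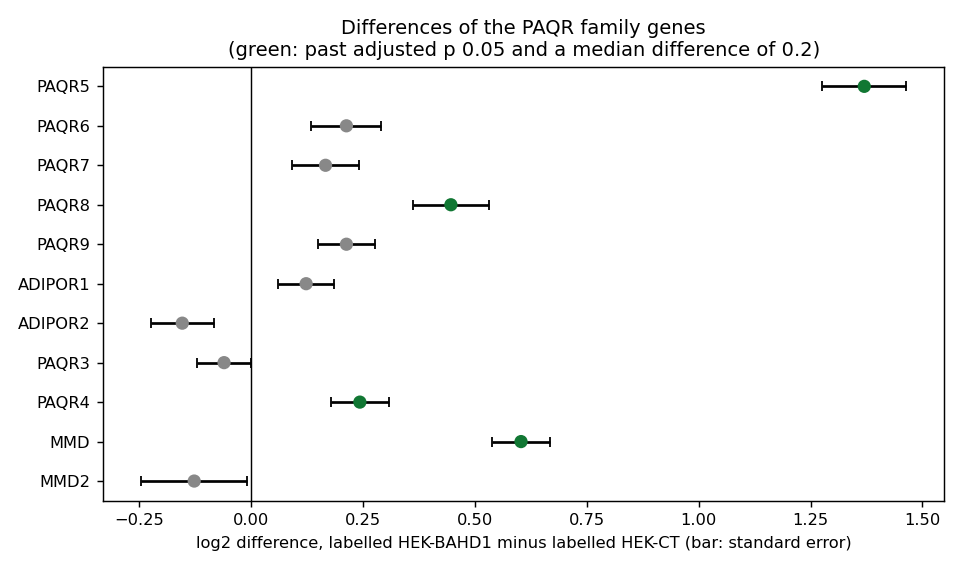
Log2 difference (horizontal axis, label HEK-BAHD1 minus label HEK-CT) of the 9 PAQR family genes and of the related MMD and MMD2. Points are differences of means of 3 arrays, bars are limma standard errors, and green marks genes past the call rule: PAQR5, PAQR8, PAQR4 and MMD.

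Promoter sequence was read for the members found in a RefSeq table of GRCh38.p14 promoters, each 300 bases long, from 250 before to 50 after the annotated start. It held 7 promoters of 4 of the 9 members: PAQR4, PAQR6, PAQR9 and ADIPOR1. PAQR4, which lay past the call rule, and PAQR6, which had a near-equal difference but did not, are shown as a pair that differed in its content of CpG, the dinucleotide at which DNA is methylated (CG in capitals). The PAQR4 window was chr16:2969098-2969397 on the plus strand, and that of PAQR6 was chr1:156248007-156248306 on the minus strand, both written 5′ to 3′ on the gene's strand.
PAQR4: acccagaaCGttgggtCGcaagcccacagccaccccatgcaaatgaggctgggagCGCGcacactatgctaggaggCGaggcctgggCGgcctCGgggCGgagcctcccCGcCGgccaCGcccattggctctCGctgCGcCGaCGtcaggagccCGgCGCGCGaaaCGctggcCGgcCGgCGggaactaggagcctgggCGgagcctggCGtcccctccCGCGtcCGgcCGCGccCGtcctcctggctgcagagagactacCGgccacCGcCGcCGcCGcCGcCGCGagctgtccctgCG
PAQR6: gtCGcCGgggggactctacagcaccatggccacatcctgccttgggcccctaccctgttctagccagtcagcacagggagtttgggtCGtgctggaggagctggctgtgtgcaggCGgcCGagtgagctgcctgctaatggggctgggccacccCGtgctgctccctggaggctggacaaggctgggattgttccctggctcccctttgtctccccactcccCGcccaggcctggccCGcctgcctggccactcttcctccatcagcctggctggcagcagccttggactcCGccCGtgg
The PAQR4 promoter held 40 CpG, more than 92.4% of the 35116 promoters in the table, whose median was 14. That of PAQR6 held 10, more than 43.6% of them. The PAQR9 promoters held 43 and 31, and those of ADIPOR1 held 30, 36 and 24. Both of these genes lay short of the call rule, as PAQR6 did. A relation of CpG content to the calls was not tested. The GC box, searched as GGGCGG on either strand, occurred 3 times in the PAQR4 window and 2 times in that of PAQR6. It was present in 6 of the 7 member promoters and in 45.0% of all promoters. The 7 windows come from 4 genes and are not independent. The ADIPOR1 windows chr1:202958263-202958562 and chr1:202958347-202958646 overlap, so part of the sequence was counted again. These letter matches describe the windows only. No methylation was read here.

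The chromosomal neighbours of each member were read to see whether a difference was shared along the chromosome. For each member the 3 nearest measured genes on either side were taken in RefSeq order, 54 genes in all. Of these, 5 were called higher, 1 lower and 48 neither, with a median difference of 0.02. Beside this, 6.79% of all named probe sets were called higher and 6.39% lower, with a median difference of 0.0033. Around PAQR5, the differences ran from -0.17 to 0.29, all below its own 1.37. The lowest was that of ANP32A-IT1 (standard error 0.27). This gene and EWSAT1, on the same side of PAQR5, were dim, so they say little about a shared difference. GLCE, an epimerase of heparan sulfate synthesis next to PAQR5, had 9.07 ± 0.042 and 9.36 ± 0.061 (SD, n = 3), a difference of 0.29 (limma adjusted p = 0.0180). KIF23, a kinesin of cytokinesis on its other side, differed by -0.06 (limma adjusted p = 0.505). The GLCE call was kept only when HEK-CT replicate 1 or the third HEK-BAHD1 array was left out, and its adjusted p reached 0.0580 otherwise.

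The neighbours of PAQR4 ran from -0.04 to 0.09, with limma adjusted p of 0.394 or more. Those of PAQR6 had a median of -0.15, opposite in sign to PAQR6 itself, with limma adjusted p of 0.0503 or more. The pair with the largest neighbouring differences stood beside members that lay short of the call rule. PCOLCE2, an enhancer of procollagen processing next to PAQR9, differed by 0.46 (limma adjusted p = 0.00594). ANXA3, a calcium-dependent membrane-binding annexin near PAQR3, had 8.88 ± 0.12 and 8.03 ± 0.036 (SD, n = 3), a difference of -0.85 (limma adjusted p = 0.000806). Both calls were kept without any 1 of the 6 arrays. WNT5B next to ADIPOR2 (0.32, limma adjusted p = 0.0222), TMEM14A near PAQR8 (0.28, limma adjusted p = 0.0187) and MTFR1L near PAQR7 (0.25, limma adjusted p = 0.0366) were each lost on leaving out at least 4 of the 6 arrays. Their adjusted p then reached 0.0767, 0.0618 and 0.121.

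**Figure D3:**
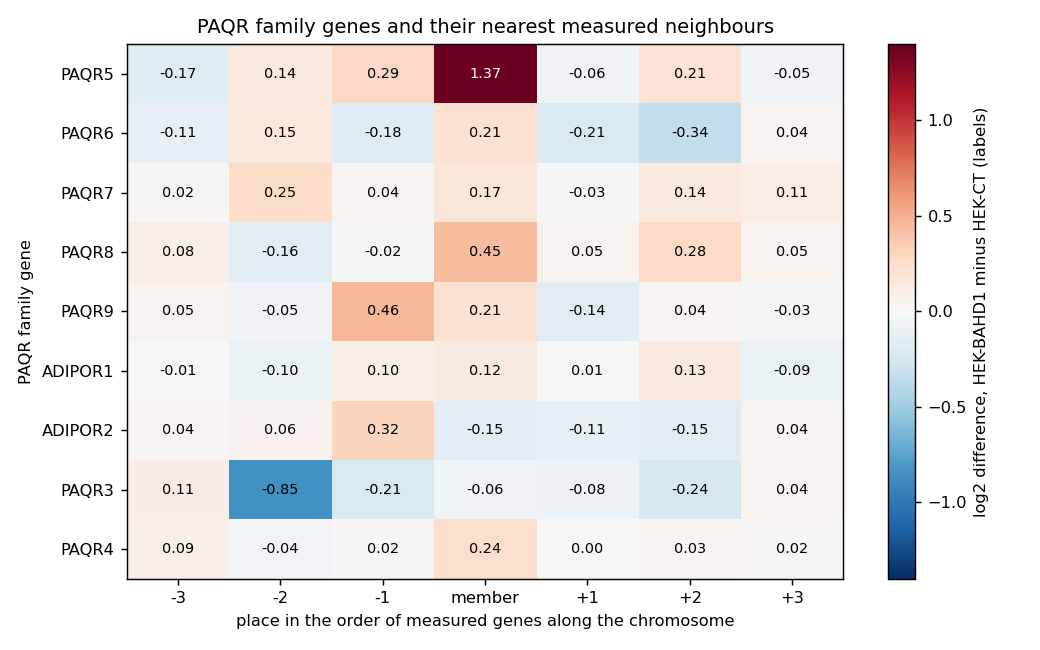
Log2 difference (colour and printed value, label HEK-BAHD1 minus label HEK-CT) of each PAQR family gene (centre column) and of the 3 nearest measured genes on either side. Rows are members and columns are places in gene order, not distance. PAQR5 at 1.37 stands alone in its row, and ANXA3 at -0.85 lies near PAQR3.

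The genes whose pattern over the 6 arrays was most like that of PAQR5 were found by root mean square distance after centring each probe set on its own mean. They were RERG, a small GTPase of the RAS superfamily (distance 0.12, difference 1.23), LGI2, a secreted leucine-rich repeat protein (0.13, 1.26), LDOC1, a nuclear leucine zipper protein (0.14, 1.31), SPON1, an extracellular matrix spondin (0.14, 1.27), and SCD, the desaturase that makes monounsaturated fatty acids (0.14, 1.15). The sign for LDOC1 is opposite to the study's listing, as given above. RERG read 5.18, 5.59 and 5.14 on the arrays labelled HEK-CT and 6.52, 6.50 and 6.58 on those labelled HEK-BAHD1. Like PAQR5, it had its highest HEK-CT value on replicate 2. With 6 arrays this likeness is mostly that of the difference between labels.

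Beyond the 9 members, 10 lists of related genes held 151 genes, of which 131 were measured alone by a probe set. Of these, 25 were called higher, 4 lower and 102 neither, with a median log2 difference of 0.05. All 18377 genes named alone gave 1317 higher and 1162 lower, with a median of 0.0067. Over all named probe sets, 6.79% were called higher and 6.39% lower, the shares to set beside each list below. The lists were chosen with earlier results of these data known, so their counts are descriptions. Many of the calls of related genes were near the threshold. Leaving out HEK-CT replicate 1, 2 or 3 left 18, 16 or 10 calls higher, and leaving out HEK-BAHD1 replicate 1, 2 or 3 left 14, 12 or 12. The calls lower were then 1 to 2. Of the 29 calls, 10 were kept in all 6 of these fits and 18 in fewer than 5. No call turned its direction.

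The family has further members: MMD, first described in macrophages, and MMD2. MMD read 6.81, 6.85 and 6.70 on the arrays labelled HEK-CT and 7.42, 7.31 and 7.44 on those labelled HEK-BAHD1. The groups did not overlap, and the difference was 0.60 (standard error 0.065, limma adjusted p = 0.0021, 1.52-fold). It was kept without any 1 of the 6 arrays. MMD2 was dim and its groups overlapped, with a difference of -0.13 (limma adjusted p = 0.538).

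On the ligand side of the progestin receptors, the steroid genes moved little. Of 15 measured genes of progesterone synthesis and metabolism, 1 was called higher and 0 lower, the median difference was 0.01 and 10 were dim. CYP11A1 and HSD3B1, which make progesterone from cholesterol, were dim and differed by -0.05 and -0.04 (limma adjusted p = 0.834 and 0.738). The called gene, AKR1C1, reduces progesterone to a weaker steroid (0.42, limma adjusted p = 0.0394). It has near-identical paralogs that can share probe signal, so its value is uncertain, and its call was kept only without HEK-CT replicate 3, with an adjusted p of up to 0.110. Of 4 other progesterone-binding proteins and their relatives, 1 was called higher. This was NENF, a secreted heme-binding relative of PGRMC1 (0.30, limma adjusted p = 0.0165), whose call was lost when replicate 3 of either label was left out (adjusted p up to 0.0639). PGR, the nuclear progesterone receptor, was dim and differed by -0.01 (limma adjusted p = 0.940), and PGRMC2 by 0.06 (limma adjusted p = 0.540).

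Downstream of the progestin receptors, 4 of 14 inhibitory G proteins and adenylyl cyclases were called higher and 0 lower. Over all named probe sets, these shares were 6.79% and 6.39%. The median difference of the list was 0.13. GNAZ, an inhibitory alpha subunit common in neurons and platelets, read 6.58, 6.58 and 6.46 on the arrays labelled HEK-CT and 7.09, 7.19 and 7.25 on those labelled HEK-BAHD1. Its groups were 0.51 apart at their nearest, and its difference was 0.64 (standard error 0.066, limma adjusted p = 0.00177). The widespread subunits GNAI1, GNAI2 and GNAI3 differed by -0.02, 0.05 and -0.08 and were not called. Among the cyclases, which make cyclic AMP, ADCY1 differed by 0.44 (limma adjusted p = 0.00795). The calls of GNAZ and ADCY1 were kept in all 6 leave-outs. ADCY7 differed by 0.45 (limma adjusted p = 0.0326), and its call was kept only without HEK-BAHD1 replicate 1, with an adjusted p of up to 0.0937. ADCY3 differed by 0.29 (limma adjusted p = 0.0207), and its call was kept only without HEK-CT replicate 1 or 2, with an adjusted p of up to 0.0698.

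For the adiponectin receptors, 1 of 10 measured ligands and adaptors was called higher and 0 lower, with a median of 0.05. APPL2, an adaptor that binds these receptors, differed by 0.29 (limma adjusted p = 0.0242), and its call was kept only without replicate 1 of either label, with an adjusted p of up to 0.0786. Its relative APPL1, the adaptor that passes on the adiponectin signal, differed by 0.05 (limma adjusted p = 0.539). ADIPOQ, adiponectin itself, was dim, with a difference of -0.12 (limma adjusted p = 0.435).

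The AMPK and PPARA axis had calls in both directions, 7 higher and 3 lower of 27 measured. Over all named probe sets, 6.79% were called higher and 6.39% lower. The median of the list was 0.05. CPT1A, which brings fatty acids into mitochondria, read 6.23, 6.43 and 6.30 on the arrays labelled HEK-CT and 6.71, 7.03 and 6.85 on those labelled HEK-BAHD1. The groups did not overlap, and the difference was 0.54 (standard error 0.093, limma adjusted p = 0.0107). UCP2, a mitochondrial carrier, and CAMKK1, a kinase upstream of AMPK, differed by 0.45 and 0.38 (limma adjusted p = 0.00421 and 0.0109). PRKAA1, a catalytic subunit of AMPK, fell from 10.28 ± 0.035 to 9.90 ± 0.082 (SD, n = 3), a difference of -0.38 (standard error 0.061, limma adjusted p = 0.00849). These 4 calls were kept in all 6 leave-outs. The other calls on the lower side were the deacetylase SIRT1 and the AMPK subunit PRKAB2, both at -0.23 (limma adjusted p = 0.0324 and 0.0321) and named after their values were seen, and both were lost in all 6, with adjusted p of up to 0.0975 and 0.105. PPARA, the receptor itself, differed by 0.20 (limma adjusted p = 0.276) and PRKAA2, the other catalytic subunit, by -0.07 (limma adjusted p = 0.450).

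Of 30 measured genes of ceramide and sphingosine metabolism, 4 were called higher and 1 lower, beside 6.79% and 6.39% of all named probe sets. The median of the list was 0.01. CERS4, a ceramide synthase, read 5.77, 5.75 and 5.58 on the arrays labelled HEK-CT and 6.09, 6.52 and 6.52 on those labelled HEK-BAHD1. HEK-BAHD1 replicate 1 was the lowest of its group, and the difference was 0.68 (standard error 0.12, limma adjusted p = 0.0130). CERK, the kinase that makes ceramide 1-phosphate, differed by 0.32 (limma adjusted p = 0.0102), and both calls were kept in all 6 leave-outs. SMPD3, a neutral sphingomyelinase, was dim and differed by -0.49 (limma adjusted p = 0.0383), with its call kept only without HEK-BAHD1 replicate 2 and an adjusted p of up to 0.110. SGPL1, the lyase that ends the pathway, and SMPD2 each differed by 0.25 (limma adjusted p = 0.0308 and 0.0255), with both calls kept only without HEK-CT replicate 2 and adjusted p of up to 0.0980 and 0.0811. The ceramidases ACER1, ACER2, ACER3 and ASAH1, which share the activity described for the adiponectin receptors, differed by -0.13, 0.21, -0.19 and 0.12 and were not called.

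**Figure D4:**
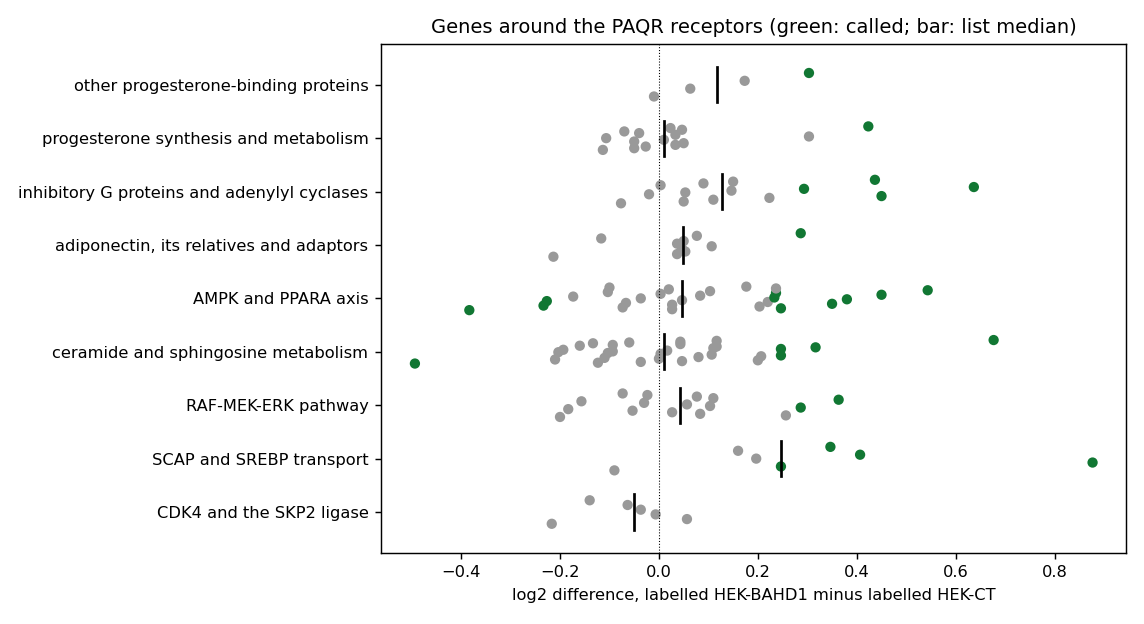
Log2 difference (horizontal axis, label HEK-BAHD1 minus label HEK-CT) of the measured genes of 9 lists around the PAQR receptors. Each point is a gene, green marks called genes, grey the others, and the black bar is the median of the list, which runs from -0.05 (CDK4 and the SKP2 ligase) to 0.25 (SCAP and SREBP transport).

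For the partners of PAQR3, the RAF-MEK-ERK pathway and the SREBP transport system were read. Of 16 measured RAF-MEK-ERK genes, 2 were called higher and 0 lower, with a median of 0.04. Both were Sprouty inhibitors of receptor signalling: SPRY4 differed by 0.36 (limma adjusted p = 0.0344) and SPRY1 by 0.29 (limma adjusted p = 0.0265). Their calls were kept only without HEK-CT replicate 2 and HEK-CT replicate 1, respectively, with adjusted p of up to 0.102 and 0.0858, and the related SPRY2 differed by -0.05. Of 7 SCAP and SREBP genes, 4 were called higher and 0 lower, beside 6.79% and 6.39% of all named probe sets. The median of this list was 0.25. The difference of INSIG1 was known when this list was made, so its count is not independent evidence of its direction.

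INSIG1, which retains SCAP in the endoplasmic reticulum and is itself a SREBP target, read 8.52, 8.33 and 8.39 on the arrays labelled HEK-CT and 9.26, 9.30 and 9.31 on those labelled HEK-BAHD1. The groups were widely separated, with a difference of 0.88 (standard error 0.064, limma adjusted p = 0.000507), kept in all 6 leave-outs. The transcription factors SREBF1 and SREBF2 differed by 0.41 and 0.35 (limma adjusted p = 0.0273 and 0.0125). The first call was kept only without replicate 1 of either label (adjusted p up to 0.0831), and the second was lost without HEK-CT replicate 3 (adjusted p = 0.0503). MBTPS1, the protease that first cuts SREBP, differed by 0.25 (limma adjusted p = 0.0186), and its call was kept only when HEK-CT replicate 1 or the third HEK-BAHD1 array was left out (adjusted p up to 0.0700). SCAP differed by 0.20 (limma adjusted p = 0.0455), short of the threshold on medians, and INSIG2 by -0.09 (limma adjusted p = 0.430).

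For PAQR4, 0 of 6 genes of CDK4 and the SKP2 ubiquitin ligase were called by limma in either direction, with a median of -0.05. At an unadjusted p under 0.05, 0 were higher and 1 lower, and the LPE test called 0. CDK4 differed by 0.06 (limma adjusted p = 0.510) and SKP2 by -0.04 (limma adjusted p = 0.678). In the reported fit, counts of 0 on the lower side held for 8 of the 10 lists, 74 genes together. These lists were grouped by that count, so nothing is read from it. The 4 calls lower lay in the remaining lists, 3 in the AMPK and PPARA axis and 1 in ceramide and sphingosine metabolism. Over all named probe sets, 6.39% were called lower. Of the 74 genes, 5 were lower at an unadjusted p under 0.05, and the LPE test called 0 lower. RBX1 of the SKP2 ligase (-0.22, limma adjusted p = 0.0418) and the RAF kinase ARAF (-0.20, limma adjusted p = 0.0488) fell short only of the threshold on medians. Both were called lower with arrays centred on their medians.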

How the data were processed

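Total RNA of 3 arrays labelled HEK-BAHD1 and 3 labelled HEK-CT was measured on Affymetrix HuGene 1.0 ST arrays. The authors made the deposited log2 values with RMA, which corrects background, normalizes between arrays and summarises probes. The RMA version and the genome build of the array annotation are not given in the sources used here. Values have 2 decimals, and array medians lay between 5.46 and 5.56, so differences shared by an array may remain. RMA levels of different probe sets are not comparable. The number of arrays limits the precision. The median SD within a line was 0.09 over named probe sets.

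Of 28869 probe sets, 19310 named 1 gene, 1752 several and 7807 none. The 21062 naming a gene were fitted with limma 3.58.1 (R 4.3.3) without a block, and p-values were adjusted by Benjamini-Hochberg over all of them. Calls joined 2 conditions, a difference of group medians larger than 0.2, as in the study's methods, and an adjusted p under 0.05. The LPE test of those methods was rewritten from its description (100 bins, a spline of 10 degrees of freedom). It was run, like limma, on simulated data, where a limit on correct calls was set for limma only. A gene outside the family with more than 1 probe set was read from its brightest. Gene order and promoters came from RefSeq.

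The members, lists and tests were chosen with earlier results of these data known. Named genes were all members, BAHD1, up to 4 called genes with the largest difference per list (a tie kept both), called neighbours and the 5 genes most like PAQR5. Genes named without a call were added for their role. Alternatives were other scalings, filters, variance models and tests, a block for the replicate number, and each array left out in turn. Of the listed related genes, 20 were not analysed here. The paper gives another series number for its arrays. The series was taken as the same experiment from its lines and replicates.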

Additional observations from a re-analysis of the deposited data

How the results depend on the processing

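Over the 14 alternatives no member changed its direction (PAQR7 was not fitted without the dimmest 30% of named probe sets), PAQR5 and PAQR8 stayed past the call rule in all, and 2 or 3 members lay past it higher and 0 lower, also with each array left out (2 to 3 and 0 to 0). PAQR4 fell short with arrays centred on their medians, with all probe sets tested, with the replicate block, and without 5 of the 6 arrays. The related genes called higher, 25 in the reported fit, ranged from 10 to 18 with 1 array left out, and those called lower, 4 in the reported fit, from 1 to 2. The latter were 7 with centred arrays, 2 with quantile normalization repeated, 1 with all probe sets tested and 2 with the LPE test, and the cause was not tested. Centring moved the median of all named probe sets to -0.04 and lowered the share of all calls on the higher side to 36.6% (1052 higher, 1823 lower, against 1430 and 1345). All calls lower were 829 with the replicate block. With 1 array left out, all calls were 806 to 938 higher and 581 to 937 lower, from fewer samples.

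Deviations of same-numbered arrays from their group means correlated at -0.08, 0.07 and -0.04. For differently numbered arrays the values ran from -0.14 to 0.18. Centring within groups of 3 ties these correlations to each other, so they cannot decide whether the replicate numbers pair the arrays. With the replicate number as a block, 13 related genes were called higher and 1 lower, with 13 of the 29 calls kept and 16 lost.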
